A study of Schizosaccharomyces pombe with 40 samples.

Results

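The genes ste11, mei2, mei3, pat1 and rep1 of the fission yeast Schizosaccharomyces pombe are regulators of the decision to leave growth and start meiosis. They were taken by name from the deposited table, in which all 5 were found among 7013 genes, and are described over all 17 polyA RNA-seq libraries. All 5 passed the filter on low values, which kept 6160 genes that reached 1 scaled CPM in 2 libraries or more. Scaled CPM is the deposited signal per library, in which every gene is a whole number of reads times 1 constant.

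The libraries came from vegetative cells in YES, a rich medium, grown at 32 °C to mid log phase, so the genes were measured in cells that had not been starved. Strain ED666 (h+ ade6-M210 ura4-D18 leu1-32) gave 9 libraries, 3 each of wild type, ebp1Δ and eaf1Δ. More ED666 libraries carry the suffix b in their labels and are called ED666b here: 2 of wild type and 2 of ell1Δ. Pem2 is an h- strain that shares the markers ade6-M210, leu1-32 and ura4-D18 with ED666 and also carries mat1_m-cyhS, smt0 and rpl42::cyhR(sP56Q); it gave 2 libraries of wild type and 2 of ell1Δ. The deletions carry kanMX6 in ED666 and natMX6 in Pem2, and ell1, eaf1 and ebp1 encode subunits of a complex with the RNA polymerase II elongation factor ELL. ED666 cells are of the P mating type and Pem2 cells of the M type, and no label says whether replicates came from separate cultures or how many clones a deletion strain stands for.

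In fission yeast, nutrient starvation lowers cyclic AMP and TOR signalling and raises stress kinase signalling, and these inputs meet at ste11, which encodes the HMG-box transcription factor that switches on mating and meiotic genes. One target of Ste11 is mei2, whose RNA-binding protein is needed for premeiotic DNA synthesis and for the first meiotic division, and which sequesters the RNA elimination factor Mmi1. The kinase Pat1 phosphorylates Ste11 and Mei2 and holds them back in growing cells, Mei3 is the inhibitor of Pat1 that is made after cells of opposite mating type have fused, and Rep1 is a transcriptional activator that works with the MBF complex at the entry into premeiotic DNA synthesis. In haploid cells of a single mating type on rich medium, meiosis does not take place.

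The ED666 libraries hold 6486554 to 9193169 recovered reads, those of ED666b 38150862 to 43374049 and those of Pem2 35337271 to 40796006, so the smallest level that 3 reads give was 0.335 to 0.456 scaled CPM in the first set and at most 0.0835 in the others. Each deleted gene was lowest in its own deletion libraries, although reads were left there: ebp1 had 8.28 to 10.2 scaled CPM in its deletion and at least 60.9 elsewhere, eaf1 had 19.0 to 22.3 against at least 43.4, and ell1 had 16.6 to 31.1 against at least 68.5. The mating type was checked with 6 M-cell and 3 P-cell genes: mfm2, an M-factor pheromone gene, had 2.56 to 6.50 scaled CPM in the 13 ED666 and ED666b libraries and 22.3 to 114 in the 4 Pem2 libraries. The ranges of the other 5 M-cell genes and of map2, map3 and map4 overlapped between the strains, so that the labelled type was seen in mfm2 alone. One library, replicate 3 of wild-type ED666, stood out from the rest: it was the highest or the lowest of the 17 for 33.1% of genes, against 5.76% to 16.9% in the other 16. The fold changes that rest on it are given with and without it.

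These are bulk libraries, in which fewer cells with a transcript and less of it per cell cannot be told apart. The transcript of ste11 was at a median of 6.01 RPKM (reads per kilobase of gene, scaled to depth) over the 17 libraries, which is above 25.5% of the genes in the table. The transcript of pat1 was at 7.05 RPKM, that of rep1 at 7.42, that of mei2 at 2.79 and that of mei3 at 0.740 RPKM, the lowest of the 5. Per length, then, the kinase and the MBF activator were the most abundant and the Pat1 inhibitor the least. On the scaled CPM scale, pat1 varied 1.82-fold and rep1 2.06-fold between the lowest and the highest library. ste11 varied 4.51-fold, mei3 6.25-fold and mei2 51.1-fold, and the lowest mei3 library had 3 reads of it. The spread of mei2 rests on wild-type ED666 replicate 3, at 189.5 scaled CPM. In the other 16 libraries mei2 ran from 3.71 to 26.0 scaled CPM and ste11 from 13.3 to 42.9.

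**Figure D1:**
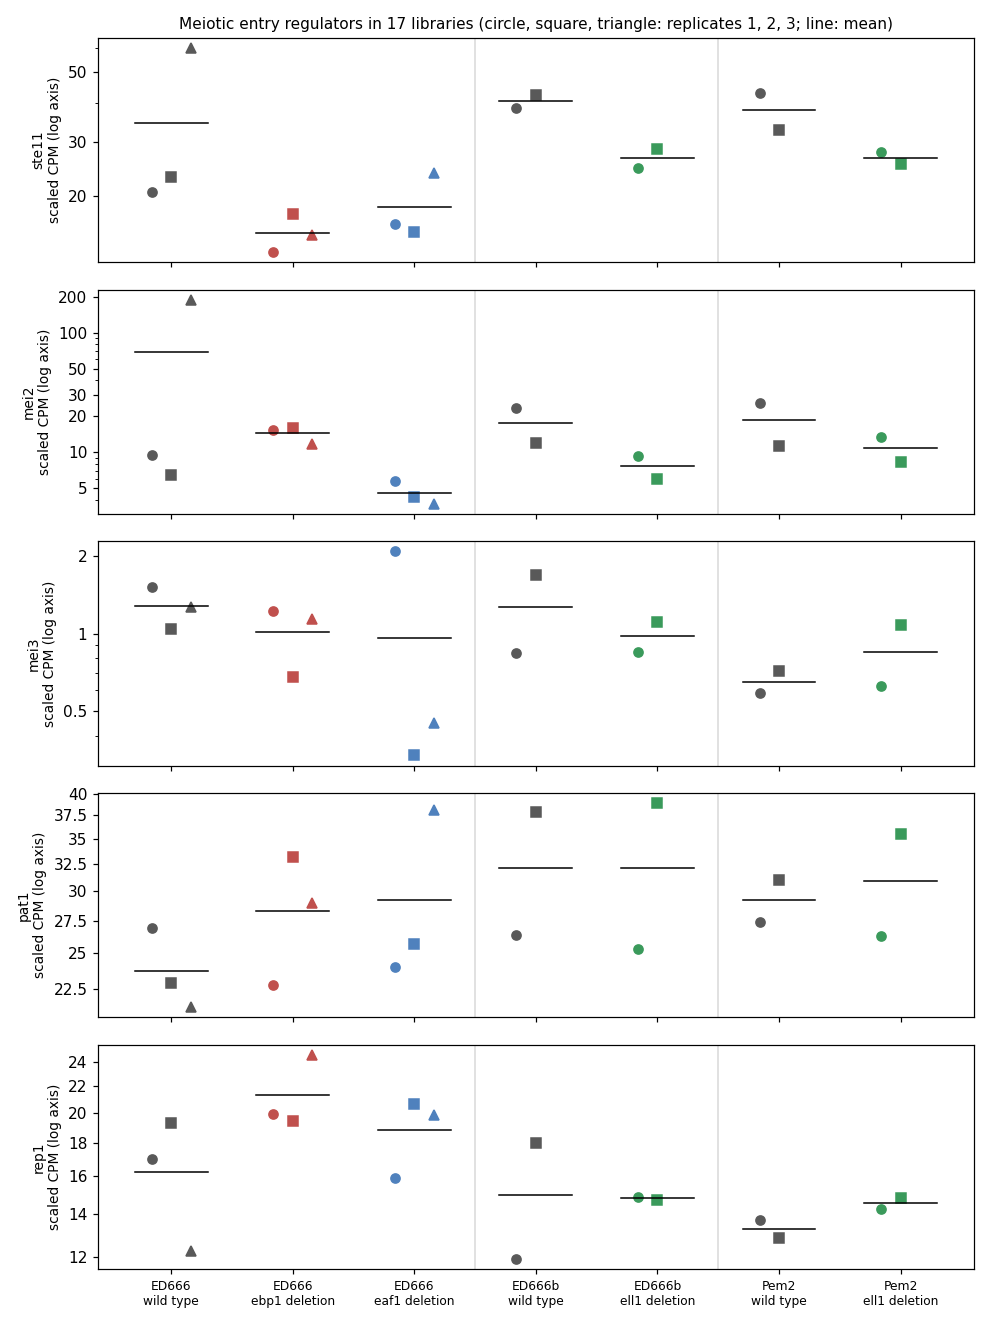
Scaled CPM of ste11, mei2, mei3, pat1 and rep1 (rows, log axis) in each of 17 libraries, grouped by strain set and genotype; symbols are replicates and lines are group means. Wild-type ED666 replicate 3 lies far above all other libraries for mei2 (189.5) and above all others for ste11 (59.9), while pat1 and rep1 stay within a narrow range.

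ste11, the master transcription factor of mating and meiosis, had 20.7, 23.0 and 59.9 scaled CPM in the 3 wild-type ED666 libraries, and replicate 3 was the highest of all 17. In ebp1Δ it had 13.3, 17.5 and 15.0 scaled CPM, and in eaf1Δ 16.3, 15.4 and 23.7. All ebp1Δ libraries lay below all wild-type libraries, whether or not replicate 3 is counted, while eaf1Δ and wild type overlapped. Levels in the deeper ED666b set were 38.3 and 42.4 in wild type and 24.6 and 28.4 in ell1Δ. In Pem2 they were 42.9 and 32.6 in wild type and 27.8 and 25.4 in ell1Δ. In both strains each ell1Δ library was below each wild-type library, and the 4 ell1Δ values fell within 24.6 to 28.4. Ordered by mean, the groups ran from wild-type ED666b (40.4 ± 2.92, SD, n = 2) and wild-type Pem2 (37.8 ± 7.31, n = 2) down to eaf1Δ (18.5 ± 4.56, n = 3) and ebp1Δ (15.3 ± 2.14, n = 3). Of the 6 pairs of neighbours in that order 5 overlapped in range. ED666b ell1Δ and eaf1Δ were the pair that did not, and they come from sets of different depth. Wild-type ED666 replicates 1 and 2 (20.7 and 23.0) also lay below both ED666b ell1Δ and both wild-type ED666b libraries. Set and genotype therefore cannot be told apart in an order that runs across the sets.

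mei2, the RNA-binding regulator downstream of Ste11, had 9.42 and 6.39 scaled CPM in wild-type ED666 replicates 1 and 2 and 189.5 in replicate 3, which stands for 62, 43 and 1342 reads. Replicate 3 was thus 24.0 times the mean of the others. In ebp1Δ mei2 had 15.4, 16.05 and 11.7 scaled CPM, and in eaf1Δ 5.72, 4.24 and 3.71. The eaf1Δ libraries were the lowest 3 of all 17, and the ebp1Δ libraries lay between wild-type replicates 1 and 2 on one side and replicate 3 on the other. A rank over all 17 runs across sets of different depth. Wild-type ED666 replicates 1 and 2 were also below both wild-type ED666b libraries. In the deeper sets mei2 had 23.4 and 11.9 scaled CPM in wild-type ED666b against 9.35 and 5.94 in ell1Δ, and 26.0 and 11.2 in wild-type Pem2 against 13.3 and 8.31 in ell1Δ. The ED666b groups did not overlap and the Pem2 groups did. The share of all genes separated in that way in ED666b was not counted, so the separation is given as a description only. With 2 libraries against 2, separate ranges are common. In the other strain and the opposite direction, every Pem2 ell1Δ library lay above every Pem2 wild-type library for 19.2% of genes. In each of these 4 groups the library numbered 1 had more mei2 than the one numbered 2.

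mei3, which encodes the Pat1 inhibitor, was read 3 to 64 times per library. It had 1.52, 1.04 and 1.27 scaled CPM in wild-type ED666, 1.23, 0.674 and 1.14 in ebp1Δ and 2.09, 0.335 and 0.450 in eaf1Δ. It had 0.843 and 1.70 in wild-type ED666b, 0.845 and 1.11 in its ell1Δ, 0.585 and 0.712 in wild-type Pem2 and 0.622 and 1.08 in its ell1Δ. The eaf1Δ libraries alone spanned the whole range of the 17, one of them at the 3-read floor, and none of the 6 neighbouring pairs of groups in the order of means was separate. A difference below the spread between such low counts was not detectable at this depth.

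pat1, the kinase gene, had 26.9, 22.9 and 21.3 scaled CPM in wild-type ED666, 22.8, 33.2 and 29.0 in ebp1Δ and 24.0, 25.7 and 38.1 in eaf1Δ. It had 26.4 and 37.9 in wild-type ED666b against 25.3 and 38.9 in ell1Δ, and 27.4 and 31.0 in wild-type Pem2 against 26.3 and 35.5 in ell1Δ. All groups overlapped with their neighbours in the order of means. Wild-type ED666 replicate 3, the library highest in ste11 and mei2, was the lowest of all 17 for pat1, at 0.857 times the mean of replicates 1 and 2. That library was the lowest for 20.6% of all genes tested.

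rep1, the MBF activator gene, had 17.01, 19.3 and 12.3 scaled CPM in wild-type ED666, 19.9, 19.4 and 24.6 in ebp1Δ and 15.9, 20.6 and 19.9 in eaf1Δ. It had 11.9 and 18.0 in wild-type ED666b against 14.8 and 14.7 in ell1Δ, and 13.7 and 12.8 in wild-type Pem2 against 14.2 and 14.8 in ell1Δ. The ebp1Δ libraries lay just above all wild-type libraries of their set, by a gap between 19.3 and 19.4, and the Pem2 ell1Δ libraries just above their wild type, as was so for 7.73% of genes in ebp1Δ and 19.2% in Pem2 ell1Δ. In the reference annotation rep1 overlaps mmp1 on the other strand, and whether the counting used strand is not known, so that reads of the 2 genes cannot be told apart where they overlap. mmp1 had 69.5 to 86.3 scaled CPM over the 17 libraries. The same limit holds for the other members. In that annotation, noncoding genes absent from the deposited table overlap ste11 (2), mei2 (3), mei3 (1) and pat1 (1) on the other strand.

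The first question the design poses is whether loss of Ebp1 or Eaf1 moves these regulators in ED666. In ebp1Δ against wild type, no member passed an adjusted p of 0.05, where 3.67% of the 6160 genes tested did (226 genes, limma on log2(scaled CPM + 1) with Benjamini-Hochberg adjustment). The p-values measure the spread between these libraries, which may be technical. Of the 5 members, 2 had an unadjusted p under 0.05 from limma, as did 17% of genes, and edgeR on the recovered reads called 0. The log2 fold change of ste11 was -0.97 (SE 0.31, n = 3 against 3), and limma gave an unadjusted p of 0.00773 and an adjusted p of 0.113. Its groups did not overlap, as was the case in the same direction for 9.69% of genes. Without wild-type replicate 3 the log2 fold change was -0.50 (SE 0.17, limma adjusted p 0.139). In the authors' deposited table it is -1.18 with an adjusted p of 0.0249, a call that 3.24% of genes share there.

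The direction of the mei2 difference in ebp1Δ turned with the same library. The log2 fold change was -0.68 (SE 0.89) with limma's adjusted p at 0.755 over all libraries, and 0.80 (SE 0.36) at an adjusted p of 0.247 without wild-type replicate 3. The authors' deposited table gives -2.25 at an adjusted p of 0.108. For rep1 the log2 fold change was 0.39 (SE 0.17, limma adjusted p 0.256), for pat1 0.24 (SE 0.22, 0.631) and for mei3 -0.18 (SE 0.26, 0.783). The 95% intervals of pat1 and mei3, from -0.23 to 0.71 and from -0.75 to 0.39, leave room for a change in either direction. Without wild-type replicate 3 the log2 fold changes were 0.21 for rep1, 0.17 for pat1 and -0.18 for mei3.

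In eaf1Δ against wild type, again no member passed in limma or in edgeR, where 0.844% of genes did in limma; 2 of the 5 had an unadjusted limma p under 0.05, as did 13.1% of genes. mei2 had a log2 fold change of -2.16 (SE 0.89, n = 3 against 3) with an unadjusted p of 0.0313 and an adjusted p of 0.322 from limma. Its groups did not overlap, as for 7.68% of genes in that direction, and the deletion stayed below wild type without replicate 3, at -0.68 (SE 0.36, limma adjusted p 0.488). The authors' deposited table gives -3.91 at an adjusted p of 0.00128, with 1.28% of genes called there. edgeR on the recovered reads gave mei2 an adjusted p of 0.115, and 0.611 without wild-type replicate 3, where the log2 fold change was -0.80. ste11 had -0.72 (SE 0.31, limma adjusted p 0.330) and, without replicate 3, -0.25 (SE 0.17, 0.598). For rep1 the log2 fold change was 0.22 (SE 0.17), for pat1 0.27 (SE 0.22) and for mei3 -0.32 (SE 0.26), and none passed limma's threshold. Without replicate 3 they were 0.042, 0.20 and -0.32.

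Since the wild-type libraries are shared by both comparisons, ebp1Δ was also set against eaf1Δ directly, a contrast chosen after the values were seen. mei2 had 14.4 ± 2.33 scaled CPM in ebp1Δ and 4.56 ± 1.04 in eaf1Δ (SD, n = 3 each), 3.16 times as much, and the groups did not overlap, as for 11% of genes in that direction. Its log2 difference was 1.47, with a limma adjusted p of 0.516 when the spread was estimated over 17 libraries (SE 0.89). Without wild-type replicate 3 the same difference had a standard error of 0.32 and a limma adjusted p of 0.0189, and in a fit of these 6 libraries alone 0.00815. Of all genes, 2.97% passed in the 17-library fit, 6.53% without wild-type replicate 3 and 5.24% in the fit of these 6 libraries. In edgeR without that replicate the adjusted p of mei2 was 0.0295, where 5.41% of genes passed. ste11 was lower in ebp1Δ by a log2 difference of -0.24 (SE 0.31, limma adjusted p 0.835), with overlapping groups.

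**Figure D2:**
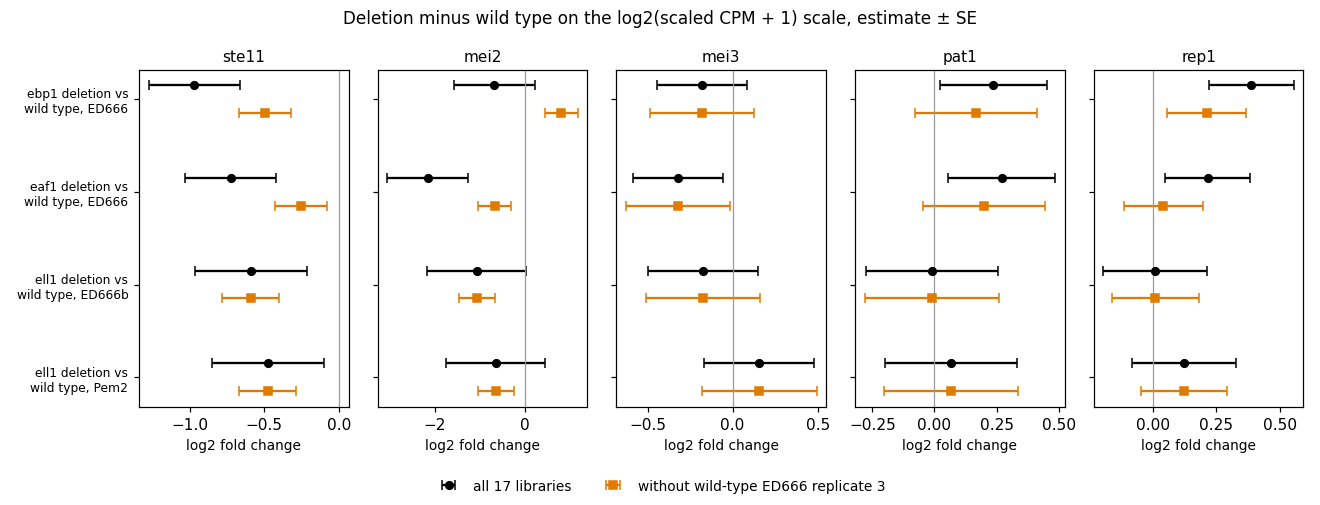
Log2 fold changes of each gene in the 4 deletion against wild-type comparisons, with standard errors, fitted over all 17 libraries (black circles) and without wild-type ED666 replicate 3 (orange squares); the x axes differ between panels. The estimate of ste11 is negative in every comparison under both fits, and that of mei2 in ebp1Δ turns from -0.68 to 0.80.

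The second question is whether loss of Ell1 moves them, in the P-type and in the M-type strain. In neither comparison did a member pass in limma or in edgeR, where 0.519% of genes did in ED666b and 0.244% in Pem2 in limma. None of the 5 had an unadjusted limma p under 0.05 in either, where 5.76% and 4.24% of genes did. ste11 in ell1Δ was at 65.6% of the wild-type mean in ED666b and at 70.5% in Pem2. The log2 fold changes were -0.59 and -0.48 (SE 0.37 each, n = 2 against 2), with adjusted p from limma of 0.998 and 1. Without wild-type replicate 1 the Pem2 value was -0.28. Set number by number, ste11 in ell1Δ was at 64.2% and 66.9% of wild type in ED666b and at 64.8% and 77.9% in Pem2. All 4 ell1Δ libraries were below the wild type of their own strain, which was so in both strains for 5.18% of genes. Without wild-type ED666 replicate 3, which belongs to neither comparison but enters the shared estimate of the spread, the standard errors were 0.19 and the limma adjusted p 0.342 and 0.663. The authors' deposited table calls ste11 in the ED666 comparison (log2 fold change -0.61, adjusted p 0.0363, 1.58% of genes called there) and not in Pem2 (-0.50, adjusted p 0.187, 1.33% called).

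mei2 followed at 43.3% of wild type in ED666b and 58.1% in Pem2. Its log2 fold changes were -1.07 and -0.65 (SE 1.09 each), with adjusted p from limma of 0.998 and 1. With a library left out, the ED666b value ran from -1.52 (without wild-type replicate 2) to -0.61 (without wild-type replicate 1). The Pem2 value was -0.083 without wild-type replicate 1, -1.22 without wild-type replicate 2, and -0.34 without ell1Δ replicate 2. Averaged over the 2 strains, a contrast also chosen after the values were seen, the ell1Δ effect on ste11 was -0.53 (SE 0.26, unadjusted p 0.0655, limma adjusted p 0.728) and that on mei2 -0.86 (SE 0.77, limma adjusted p 0.9996), where 1.38% of genes passed. Without wild-type ED666 replicate 3 the limma adjusted p was 0.0803 for ste11 and 0.215 for mei2. edgeR on the recovered reads without that library gave ste11 an adjusted p of 0.0258 and mei2 one of 0.0929, where 2.63% of genes passed.

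The strains did not differ detectably in how they responded. The difference of the ell1Δ effects, Pem2 minus ED666b, was 0.11 (SE 0.53) for ste11 and 0.41 (SE 1.54) for mei2, with a limma adjusted p of 0.9997 for both, and 0.0325% of genes passed. By unadjusted p under 0.05, 0 of the 5 members and 1.01% of genes were past it in limma, and edgeR called 0 members. The 95% interval of the difference for ste11 ran from -1.03 to 1.26. The effects of ell1Δ on pat1 were -0.01 in ED666b and 0.07 in Pem2 and those on rep1 0.01 and 0.12 (SE 0.26 and 0.20), and on mei3 they were -0.18 and 0.16 (SE 0.32). Between the wild-type strains, ste11 differed by -0.10 (SE 0.37), mei2 by 0.03 (SE 1.09), mei3 by -0.44 (SE 0.32), pat1 by -0.11 (SE 0.26) and rep1 by -0.14 (SE 0.20), Pem2 minus ED666b. None of these passed in limma or edgeR, where 0.0812% of genes did in limma, and 0 of the 5 had an unadjusted limma p under 0.05, as 5.83% of genes had.

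Wild-type ED666 replicate 3 was the library in which mei2 stood out, and it was compared with replicates 1 and 2 gene by gene over the lists around these regulators. Of the 7 genes of the pheromone MAP kinase cascade, which acts in mating cells, 4 were higher there than in any other library, where 12.6% of genes were. Whether their RNA rises before or after that of ste11 and mei2 was not tested. spk1, the MAP kinase gene, had 97.0 scaled CPM against 21.3 in both replicates 1 and 2, and ste4, which encodes an adaptor of the MAP kinase kinase kinase Byr2, had 67.8 against 19.6 and 18.9. map1, a mating-type transcription factor gene, had 31.3 against 6.83 and 5.95, and sme2, the noncoding RNA partner of Mei2, had 18.5 against 5.31 and 3.27. These 2 genes stood apart from their lists. The median ratio of replicate 3 to the mean of replicates 1 and 2 was 1.16 over the 12 pheromone, receptor and mating genes. Over the 9 Mei2 and Mmi1 genes it was 0.951, with 2 at their highest of the 17 libraries and 3 at their lowest. The lists of cyclic AMP, TOR and nitrogen, stress kinase and other regulators of ste11 were not higher as lists. gpa2 of the cyclic AMP list was at its highest there, though (131 against 96.6 and 68.1). The median ratio was 0.981 for the 10 cyclic AMP genes, 0.911 for the 10 TOR and nitrogen genes, 0.849 for the 8 stress kinase genes and 0.908 for the 13 other regulators. The early and middle meiotic genes downstream were higher there as well, at a median ratio of 1.43 over 12 genes, against 1.01 over all genes tested. Of these 12, 3 had at least 2 times the higher of replicates 1 and 2, as did 2.89% of genes. Among them, ssm4 had 16.9 scaled CPM against 6.23 and 6.69, and meu13 had 4.94 against 1.82 and 1.19. The 6 M-cell markers, which could mark cells of the other mating type, had a median ratio of 1.37 and summed to 119 scaled CPM in replicate 3 and to 107 and 103 in replicates 1 and 2, a sum made up mostly of mam1 and mam3, whose levels overlap between the strains. mfm2, which separated the strains, was at its highest of the 13 ED666 and ED666b libraries in replicate 3, with 6.50 scaled CPM against 3.95 and 4.31. mfm1 had 11 reads there against 1 and 3, mam2 was at 1.97 times the mean of the others, and mfm3 had 7 reads in each of the 3 libraries. The part of these markers in the result was not tested.

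**Figure D3:**
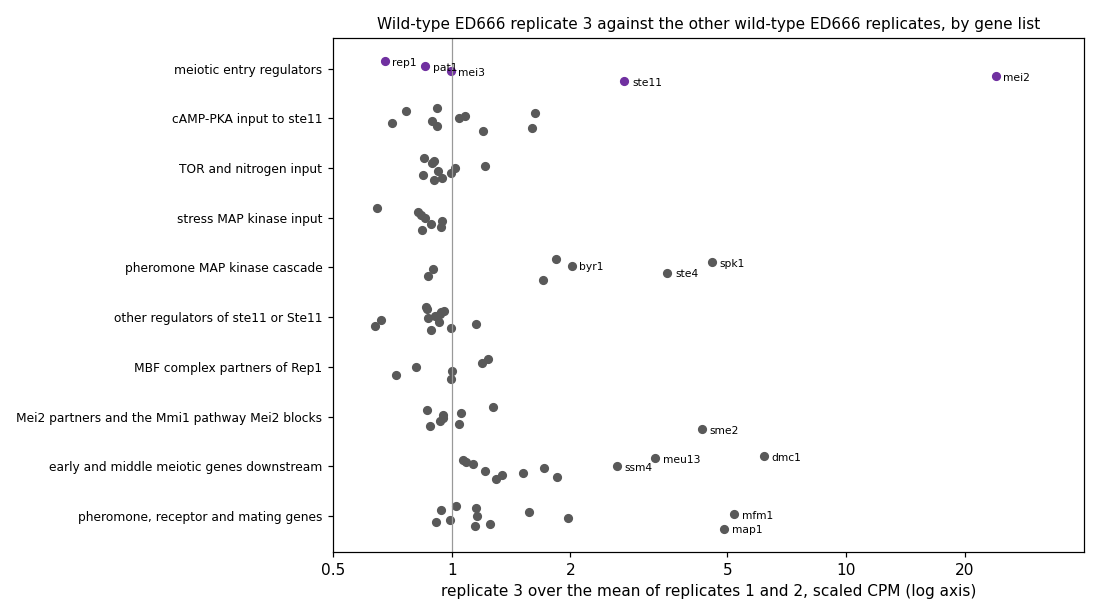
Scaled CPM in wild-type ED666 replicate 3 divided by the mean of replicates 1 and 2 (log axis), 1 point per gene, by gene list; named points are the regulators and genes above a ratio of 2. mei2 reaches 24.0 and ste11 2.74, and spk1, ste4 and map1 lie between 3.52 and 4.91. sme2 is at 4.31, and dmc1 and mfm1 are at 6.20 and 5.20, from 1.41 and 1.55 scaled CPM in replicate 3. The median of the pheromone, receptor and mating list is 1.16 and that of the Mei2 and Mmi1 list 0.951. The medians of the cyclic AMP, TOR and stress kinase lists are 0.981, 0.911 and 0.849, with single genes from 0.645 (pyp2) to 1.63 (cgs1).

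Meiotic genes that act downstream of these regulators were counted in each comparison. The list was chosen with earlier results of these data known, so its counts are a description. Of 13 early and middle meiotic genes 12 passed the filter on low values, and of these 4 rose in ebp1Δ and none fell, where 0.925% of all genes rose and 2.74% fell. The median log2 fold change of the 12 was 0.62, against 0.01 over all genes tested, and 11 of the 12 were above 0. rec25, a linear element gene, had 8.61, 11.3 and 8.14 scaled CPM in ebp1Δ and 5.16, 4.16 and 5.65 in wild type, which gave a change of 0.79 on the log2 scale (SE 0.14, limma adjusted p 0.00683). mei4, the forkhead factor gene of the middle meiotic phase, had 16.2, 26.0 and 22.3 against 10.02, 8.92 and 12.3 (0.97, SE 0.20, limma adjusted p 0.0191). spo6, which encodes the meiotic partner of the Spo4 kinase, had 17.5, 16.2 and 16.9 against 9.72, 10.9 and 11.2, a change of 0.63 (SE 0.13, limma adjusted p 0.0190), and mes1, which encodes a meiotic inhibitor of the anaphase-promoting complex, had 43.2, 48.3 and 41.6 against 36.7, 32.4 and 37.0 (0.32, SE 0.08, limma adjusted p 0.0351). None of the 4 genes overlapped between the groups, as for 7.73% of genes in that direction. They were chosen by their calls on these same values. Without wild-type replicate 3 the count was 5 of 12 and the median 0.72, but in a fit of the wild-type and ebp1Δ libraries alone it was 1, where spo6 passed, and edgeR on the recovered reads counted 2. It was 1 without wild-type replicate 1 or ebp1Δ replicate 2, and 2 without wild-type replicate 2, ebp1Δ replicate 1 or ebp1Δ replicate 3. The call of rec25 held in limma with each of the 6 libraries left out. That of mei4 was lost in limma when wild-type replicate 1 or 2, or replicate 2 or 3 of ebp1Δ, was left out, at adjusted p of 0.0535 to 0.0919. That of spo6 was lost in limma with wild-type replicate 1 or any 1 of the ebp1Δ libraries left out, at adjusted p of 0.0538 to 0.0664. That of mes1 was lost in limma with replicate 1 or 2 of either group left out, at adjusted p of 0.0508 to 0.154.

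**Figure D4:**
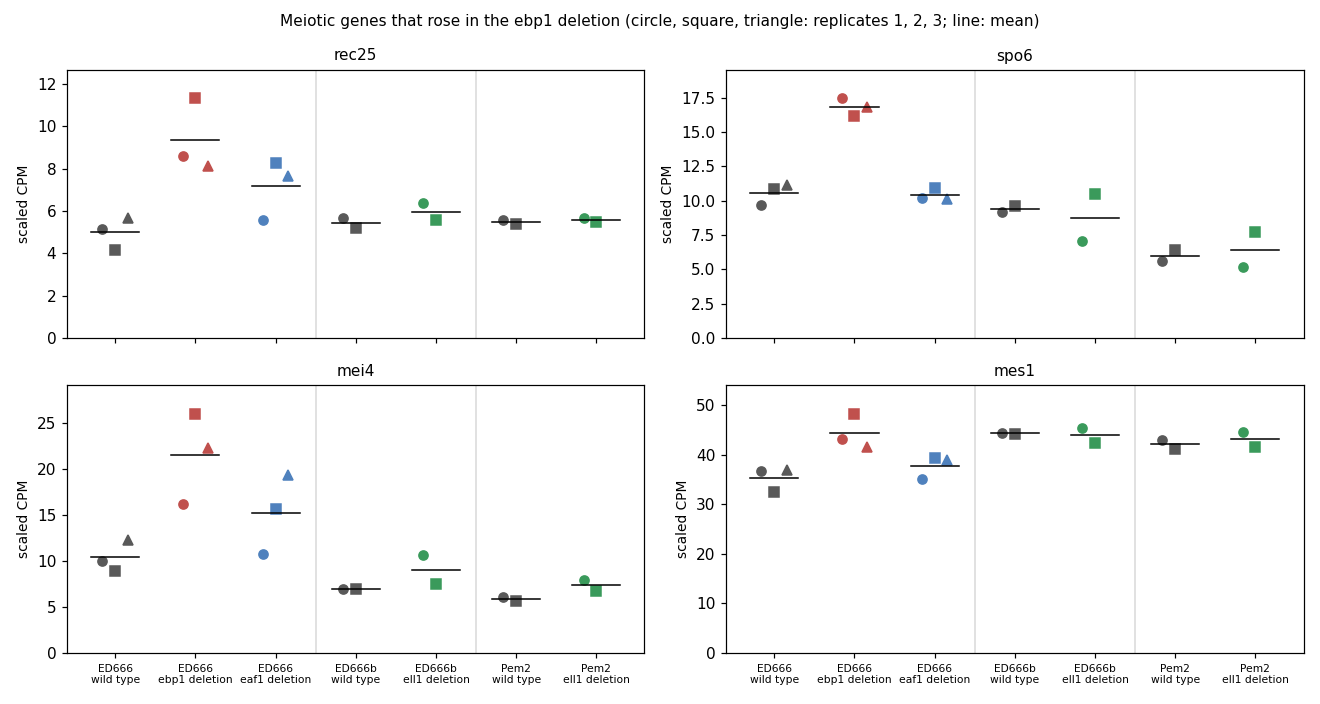
Scaled CPM of rec25, spo6, mei4 and mes1 in each library, with the y axis from 0; symbols are replicates and lines are group means. In ED666 every ebp1Δ library lies above every wild-type library, as in mei4 with 16.2 to 26.0 against 8.92 to 12.3. This was so for 7.73% of all genes tested.

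In eaf1Δ the same 12 genes had a median log2 fold change of 0.29, against -0.01 over all genes, with 11 above 0 and none called; without wild-type replicate 3 it was 0.51, with 12 above 0 and none called. In ell1Δ the median was 0.05 in ED666b and -0.0033 in Pem2, with 6 of 12 above 0 in each and none called. The 7 genes of the pheromone kinase cascade had medians of -0.36 in ebp1Δ and -0.34 in eaf1Δ with 6 of 7 below 0, and of -0.07 and -0.12 without wild-type replicate 3. In ell1Δ they were below 0 in 6 of 7 in ED666b and in 7 of 7 in Pem2, with medians of -0.18 and -0.22. None of the 7 passed in any of the 4 comparisons.

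Among regulators of ste11, pac2, which encodes a repressor of ste11, fell in ebp1Δ from 230, 234 and 216 scaled CPM to 171, 173 and 174 (log2 fold change -0.39, SE 0.05, limma adjusted p 0.000833), and it was the 1 of 13 tested that passed, where 3.67% of all genes did. rst2, the zinc-finger activator of ste11 that protein kinase A restrains, rose from 117, 128 and 112 to 147, 152 and 147 (0.32, SE 0.06, limma adjusted p 0.0136), and was the 1 of 10 cyclic AMP pathway genes that passed. Neither gene overlapped between ebp1Δ and wild type, as for 9.69% of genes in the direction of pac2 and 7.73% in that of rst2. Both calls were lost in a fit of the own libraries alone (limma adjusted p 0.0813 for pac2 and 0.176 for rst2). Without wild-type replicate 3 both held (-0.42 and 0.28), and that of rst2 was lost without ebp1Δ replicate 2 (limma adjusted p 0.0588). No gene of the TOR, stress kinase, MBF or Mmi1 lists passed against wild type over all 17 libraries (1 MBF gene rose in ebp1Δ without wild-type replicate 3), and in eaf1Δ and both ell1Δ comparisons no gene of any of the 9 lists did in limma or in edgeR. Of the 87 list genes tested, 5 had an unadjusted limma p under 0.05 in eaf1Δ, 0 in ED666b ell1Δ and 1 in Pem2 ell1Δ, where 13.1%, 5.76% and 4.24% of all genes had. Between the wild-type strains mfm2 was the 1 of 12 pheromone and mating genes that passed, where 0.0812% of all genes did, at a log2 difference of 3.71 (SE 0.36, limma adjusted p 0.000393).

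The genes next to ste11 and mei2 were read from the order of the reference annotation, a later build that served for order and strand and not for coordinates. Beside ste11, on the other strand, lies the noncoding gene rse1, which is listed in the table under SPNCRNA.111 and is known as a repressor of ste11 in cis. rse1 had 80.2, 96.8 and 128 scaled CPM in wild-type ED666, and from 74.5 to 111 in the other 14 libraries. It was at its highest in wild-type ED666 replicate 3, which also had the most ste11 and was the highest library for 12.6% of genes. Whether rse1 bears on ste11 here was not tested. The other neighbour, ppk25, had 77.8 to 121.

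Beside mei2, upstream of it on the other strand, lies the noncoding gene SPNCRNA.993. It had 0.911, 0.595 and 6.92 scaled CPM in wild-type ED666, 1.23, 1.75 and 0.9999 in ebp1Δ and 0.279, 0.781 and 0.337 in eaf1Δ. In the deeper sets it had 2.55 and 1.43 in wild-type ED666b against 1.53 and 0.733 in ell1Δ, and 3.23 and 1.23 in wild-type Pem2 against 1.39 and 0.931. The library highest for mei2 was thus also highest here, the eaf1Δ libraries were among the lowest, and the library numbered 1 was above the one numbered 2 in all 4 deeper groups. These are 2 to 116 reads per library, and whether the counting used strand is not known. The gene on the other side of mei2, grp1, had 73.1 to 133 scaled CPM and 77.8 in wild-type ED666 replicate 3.

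**Figure D5:**
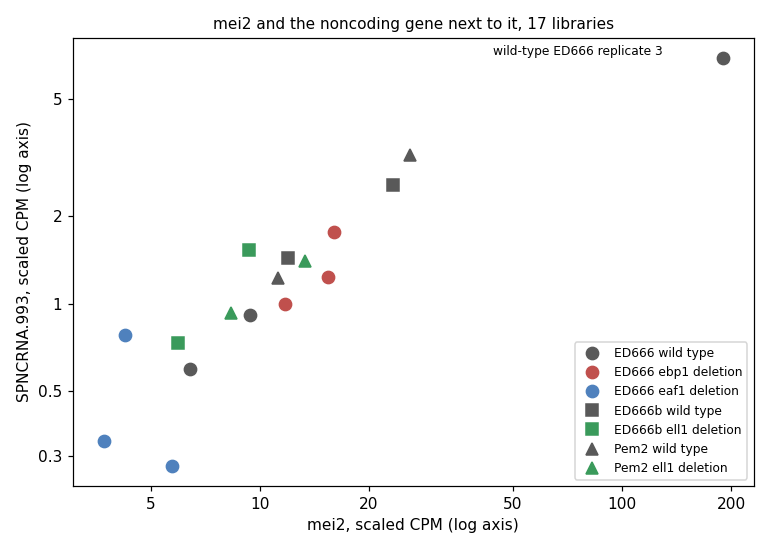
Scaled CPM of mei2 (x, log axis) and of its noncoding neighbour SPNCRNA.993 (y, log axis) in 17 libraries; shapes are strain sets and colours genotypes. The points rise together from the eaf1Δ libraries to wild-type ED666 replicate 3, with Pearson's r of 0.952 on the log2(scaled CPM + 1) scale.

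The genes most like each regulator were taken by Pearson's r of log2(scaled CPM + 1) over the 17 libraries, which fall into sets of different depth and strain, so that r is a description. Of all 6159 other genes tested, SPNCRNA.993 was the most like mei2, at 0.952 over 17 libraries and 0.911 over the 16 without wild-type ED666 replicate 3, where it ranked 2. It was followed by imt2-antisense-1 (0.941), the noncoding gene omt3 (0.940), ste4 (0.927) and map1 (0.903). Without replicate 3 imt2-antisense-1 was at 0.901 and ranked 4, while omt3, ste4 and map1 were at 0.828, 0.812 and 0.808 and ranked 16, 22 and 25. omt3 went from 2.09 at the median to 306 scaled CPM in replicate 3. The genes most like ste11 were mug109 (0.915), which like mug2 is named for its rise in meiosis, SPNCRNA.406 (0.913), gpa2 (0.897), which encodes a G protein alpha subunit of glucose sensing, mug2 (0.896) and SPNCRNA.862 (0.892). Without replicate 3 these 5 ranked between 20 and 77 among all genes.

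pat1 was most like fas1 (0.957), spp42 (0.913), ptr1 (0.901), cut6 (0.899) and lvs1 (0.899), and rep1 was most like rps001 (0.908), msi2 (0.902), SPAC22A12.06c (0.895), rpl13 (0.893) and yrs1 (0.888). fas1 and cut6 encode the fatty acid synthase beta subunit and acetyl-CoA carboxylase, and rps001 and rpl13 ribosomal proteins. mei3, which was read too rarely for a firm pattern, was most like ppk8 (0.888), pdc1, mug63, SPBPB21E7.08-antisense-1 and sfk1 (0.773 to 0.794). Among the regulators themselves, ste11 and mei2 had r of 0.624, which was 0.388 without replicate 3, and ste11 and rep1 had -0.746, which was -0.705 without it. Every other pair lay between -0.491 and 0.131 over 17 libraries.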

How the data were processed

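The authors deposited 1 table of 7014 lines (7013 genes after 1 repeated identifier), and 17 of the series' 40 samples, the polyA RNA-seq libraries, were used; the 23 chromatin samples were not analysed here. The column headed cpm in the deposited table was treated as a signal and called scaled CPM, because it is whole reads times 1 constant per library (whole to within 0.01 for 100% of values). The authors' RPKM values, per the file headers, were used to compare genes. The authors' log2 fold changes and p-values in the deposited table are quoted as such. TopHat2 2.1.1, Bowtie2 2.2.9, edgeR, MACS2 and SAMtools 1.3.1, with build ASM294v2, are named in the submitters' processing notes; the read counter, the annotation and any use of strand were not given in the sources used here. Columns of 1 group carry a code found in no label and were given to ebp1Δ by elimination. The order of genes came from RefSeq on ASM294v3.

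The 6160 genes that reached 1 scaled CPM in 2 libraries or more were fitted with limma 3.58.1 in R 4.3.3 on log2(scaled CPM + 1), with 7 group means over 17 libraries, residual degrees of freedom 10 and prior degrees of freedom 2.61. Fold changes on this scale understate low genes. P-values were adjusted by Benjamini-Hochberg over all genes tested, with calls at 0.05. On simulated data the fit of ebp1Δ against wild type was tested first. edgeR 4.0.16 on the recovered reads, which tested 6149 genes, called 179 in ebp1Δ, 27 in eaf1Δ, 48 and 40 in ell1Δ of ED666b and Pem2. The 3-read floor covers counting error only, since reads are not independent molecules.

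Named genes were the 5 members, up to 4 called genes with the smallest p from each of 9 lists per comparison, and the 5 genes most like each member. The members and lists were chosen with earlier results of these data known. Genes named beyond the rule (neighbours, genes high in 1 library) were chosen after their values were seen. List names were matched in the table for 90 genes and through RefSeq names for 2. Alternatives were other pseudocounts, no filter, TMM and quantile scaling, own libraries only, a replicate block, edgeR and leaving out each library; the fits without wild-type ED666 replicate 3 for comparisons it is not part of, edgeR without it, and 2 contrasts were added after the data were seen.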

Additional observations from a re-analysis of the deposited data

How the results depend on the processing

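No regulator passed limma's or edgeR's threshold in the 6 planned comparisons under any alternative. With values as log2 differences, the direction turned in these cases: mei2 between the wild-type strains at -0.025 under quantile scaling, rep1 in ED666b ell1Δ at -0.080 under quantile scaling, -0.016 in edgeR and -0.014 in edgeR without wild-type ED666 replicate 3, and mei2 in ebp1Δ at 0.87 in that last fit. Leaving out each library gave, from lowest to highest, -1.55 to 0.80 for mei2 in ebp1Δ; in ED666b ell1Δ, -0.45 to 0.10 for mei3, -0.31 to 0.29 for pat1 and -0.27 to 0.29 for rep1; and in Pem2 ell1Δ, -0.022 to 0.34 for mei3 and -0.14 to 0.28 for pat1. For the wild-type strains the ranges were -0.30 to 0.089 (ste11), -0.54 to 0.60 (mei2), -0.37 to 0.14 (pat1) and -0.41 to 0.14 (rep1), and for the difference of the ell1Δ effects -0.080 to 0.31 (ste11), -0.16 to 0.98 (mei2), -0.22 to 0.38 (pat1) and -0.16 to 0.39 (rep1). Of the contrasts added after the data were seen, mei2 in ebp1Δ against eaf1Δ passed limma at 1.47 in a fit of its own libraries and without wild-type ED666 replicate 3, and edgeR at 1.67 without that library (range 1.36 to 1.62 over libraries left out); ste11 in the mean ell1Δ effect passed at -0.56 in edgeR without it.

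The number of genes called moved most. In ebp1Δ (226) it was 65 in a fit of the own libraries and 134 to 368 over libraries left out, and in eaf1Δ (52) 11 in the own libraries, 27 in edgeR, 20 in edgeR without wild-type ED666 replicate 3 and 21 to 70 over libraries left out. The next comparisons do not contain wild-type ED666 replicate 3, which was left out of their shared estimate of the spread after the data were seen. In ED666b ell1Δ (32) leaving out a compared library gave 5 to 8, leaving out that replicate 62, and edgeR without it 76. In Pem2 ell1Δ (15) these were 3 to 16, 44 and 61, with 23 at a pseudocount of 5, 40 in edgeR and 0 in the own libraries by limma, where 530 genes had an unadjusted p under 0.05. Between the wild-type strains (5) they were 3 to 6, 12 and 28, with 11 in edgeR. For ebp1Δ against eaf1Δ (183) they were 103 to 152, 402 and 341, with 323 in the own libraries, and for the mean ell1Δ effect (85) 39 to 82, 135 and 166.

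Deviations of libraries with the same number correlated from -0.038 to 0.228 in the ED666 pairs, so the numbers are not shown to pair the libraries there. In the ell1Δ comparisons they correlated at 0.653 in ED666b and 0.657 in Pem2. With 2 libraries per group the 2 pairs are mirror images, so each is a single value. Across the strains, same-number libraries correlated at 0.709 in ell1Δ and 0.424 in wild type. These are a hint from the data only. The fit with a replicate block called 340 genes in ebp1Δ, 91 in eaf1Δ, 45 in ED666b ell1Δ, 28 in Pem2 ell1Δ and 285 in ebp1Δ against eaf1Δ. It called no regulator. In ebp1Δ, where the numbers are not shown to pair the libraries, ste11 was at -0.97 with a limma adjusted p of 0.0623. The causes were not tested.

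The 5 regulators lie at low levels, and mei3 at 3 to 64 reads per library limits what can be seen of it. The calls of rec25, mei4, mes1, pac2 and rst2 in ebp1Δ and of mfm2 between strains were lost in the own libraries, and those of spo6 and mes1 in edgeR.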
